A study of Mus musculus with 19 samples.

Results

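Granzymes and perforin are the cargo with which cytotoxic lymphocytes kill. The 10 genes described here, Gzma, Gzmb, Gzmc, Gzmd, Gzme, Gzmf, Gzmg, Gzmk, Gzmm and Prf1, were taken by symbol from the 48795 genes measured by RNA sequencing in 19 primary mouse sarcomas. They were chosen by the difference between the genotypes in these same tumors, which was known when the group was proposed, so every genotype difference of a member below is a description and carries no test.

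The study asked how tumors differ when they arise with or without T and B cells. Tumors were started in the gastrocnemius muscle of mice 6 to 10 weeks old with an adenovirus, Adeno-sgp53-Cas9, that delivers Cas9 and a guide against Trp53, and then with 300 µg of the carcinogen 3-methylcholanthrene (MCA), so all groups share loss of p53 function as the intended start and the same carcinogen. The 11 Rag2-/- mice lack the recombinase subunit needed to assemble antigen receptors and so have no mature T or B cells but keep natural killer (NK) cells, whereas the 8 Rag2+/- mice have all of these cells. No mouse was treated, tumors were collected at about 70 to 150 mm3, and 1 library is 1 tumor. A bulk tumor also holds muscle and stroma, and the genetic background of the mice is not given in the sources used here.

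In cytotoxic killing, perforin makes pores in the target membrane, and granzymes, a family of serine proteases stored with it in cytotoxic granules, enter the target and cut proteins there. Granzyme A and granzyme B are the best known, and granzyme B cuts caspases and Bid. NK cells and activated CD8 T cells carry both. Granzymes C, D, E, F and G are made in the mouse from a block of neighbouring genes and are known from strongly stimulated NK and T cells. Granzyme K is known mainly from T cells, and granzyme M from NK cells and other innate lymphocytes.

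The labels were checked against lymphocyte genes. Cd3e, a subunit of the T cell receptor complex, was listed at 0 in all 11 Rag2-/- tumors and lay between −0.61 and 2.90 (log2) in the Rag2+/- tumors, and Igkc, the kappa light chain constant region, reached at most −0.80 in the former and at least 3.88 in the latter. Rag2 itself was at −0.34 ± 0.74 (SD, n = 11) in the tumors labelled Rag2-/- and at −1.31 ± 0.70 (SD, n = 8) in those labelled Rag2+/-, so its level goes against the labels. Which part of the gene the allele lacks is not given in the sources used here, so that value does not test them. Genotypes below are as labelled.

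All levels are the authors' log2 of upper-quartile normalized FPKM (fragments per kilobase of transcript, scaled to library size) after 0.1 was added, a scale on which a gene listed at 0 reads −3.32 and on which levels of different genes can be set side by side per length. The low values step in multiples of what 1 fragment is worth. By those steps, 1 fragment per kilobase equals 0.0343 to 0.0853 normalized FPKM in 18 tumors and 0.209 in S41, the shallowest library. From 74.5 to 88.4% of the low values were within 0.05 of a whole number of fragments. S41, S46 and S51 (Rag2-/-) and S56 (Rag2+/-) are not among the 15 tumors in the study's source data, and values without them are given where they matter. By the study's methods, tumors with failed quality control or too little RNA or DNA were taken out of its analysis. Whether this holds for these tumors is not given in the sources used here.

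Of the 10 genes, 6 sit in 1 run on chromosome 14 (GRCm38, GENCODE vM21), all on the minus strand. In order along the chromosome these are Gzme (chr14:56117626-56120625), Gzmd (chr14:56129556-56132608), Gzmg (chr14:56156582-56159579), Gzmf (chr14:56205263-56211417), Gzmc (chr14:56231441-56234656) and Gzmb (chr14:56258838-56262260), a span of 144.6 kb that also holds Gzmn between Gzmg and Gzmf. Gzma (chr13:113093825-113100981) and Gzmk (chr13:113171608-113225908) are neighbours on the minus strand of chromosome 13. Prf1 (chr10:61297833-61304680) and Gzmm (chr10:79689020-79695261) lie apart on the plus strand of chromosome 10.

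The promoters of the block are shown because Gzmc to Gzmg rose and fell together between Rag2-/- tumors, as given further on. Between Rag2+/- tumors, where Gzmg does not vary and Gzmd, Gzme and Gzmf had at most 11 fragments, this could not be judged. In the 250 bases before the RefSeq start (GRCm38.p6), Gzmc, Gzmd, Gzme, Gzmf and Gzmg shared 5 runs of 10 or more bases, always in the same order and at the same spacing, so that a stretch of 103 bases lines up in all 5. Capitals mark the shared runs, and each sequence reads 5′ to 3′ on the minus strand.
Gzmc, chr14:56234668-56234770: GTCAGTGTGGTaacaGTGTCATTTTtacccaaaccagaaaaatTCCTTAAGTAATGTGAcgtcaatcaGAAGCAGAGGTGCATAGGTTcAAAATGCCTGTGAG
Gzmd, chr14:56132608-56132710: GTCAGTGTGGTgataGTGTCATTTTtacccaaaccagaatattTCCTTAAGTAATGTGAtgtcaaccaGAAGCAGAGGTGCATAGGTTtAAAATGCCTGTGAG
Gzme, chr14:56120641-56120743: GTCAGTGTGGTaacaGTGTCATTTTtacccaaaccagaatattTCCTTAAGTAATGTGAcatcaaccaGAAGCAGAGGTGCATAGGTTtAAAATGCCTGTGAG
Gzmf, chr14:56211443-56211545: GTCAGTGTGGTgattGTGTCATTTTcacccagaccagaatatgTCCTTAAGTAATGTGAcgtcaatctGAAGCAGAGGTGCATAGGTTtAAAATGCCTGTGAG
Gzmg, chr14:56159610-56159712: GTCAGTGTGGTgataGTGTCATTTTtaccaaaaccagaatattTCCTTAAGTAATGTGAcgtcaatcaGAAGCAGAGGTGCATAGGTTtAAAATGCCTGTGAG
For contrast, the 103 bases at the distance from the start that the stretch has in Gzmd are given for Gzmb and for Gzmn, neither of which holds any of the runs in this window.
Gzmb, chr14:56262349-56262451: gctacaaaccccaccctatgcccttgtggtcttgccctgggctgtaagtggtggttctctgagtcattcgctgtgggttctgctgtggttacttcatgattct
Gzmn, chr14:56174614-56174716: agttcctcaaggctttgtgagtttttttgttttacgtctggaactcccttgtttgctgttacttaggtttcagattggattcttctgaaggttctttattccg

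In the stretch, 89 of the 103 positions carry the same base in all 5 genes. The 3 longest shared runs, of 20, 16 and 14 bases, occur in these 5 promoters and in no other of the 32851 RefSeq promoters searched on both strands, 300 bases each. Over the 250 bases, identity between promoters, as matched bases over the length, was 77.2 to 95.2% within Gzmc to Gzmg, 49.2 to 54% between these and Gzmb, and 50.8 to 55.6% between these and Gzmn. The 8 letters TGACGTCA, the full binding site of CREB and ATF factors, overlap the end of the 16-base run in Gzmc, Gzmf and Gzmg, at 57, 82 and 77 bases before the start, and are not in the Gzmd, Gzme or Gzmb windows. They occur in 1.79% of all promoters. TGTGGT, the core bound by RUNX factors, was found 2 times in each of the 6 promoters of the block, Gzmb included. It was found once in Gzma, Gzmm and Prf1, so in 9 of the 10 members. Of all promoters, 16.8% had at least 1 match on either strand. In Gzmc to Gzmg, 1 of the 2 matches lies in the shared run of 11 bases. These 5 promoters are 77.2 to 95.2% identical, so their matches, TGACGTCA included, are not separate cases. Nothing is therefore read from the 9 of 10. Also searched on both strands were TGACG, a shorter CREB and ATF core in 20.8% of promoters that overlaps each full site and lies in Gzmb and Prf1 too, and TGANTCA, the AP-1 site in 7.81%, found in Gzmb alone of the 10. ETS (CCGGAA, 14.9%) matched in Gzmk, GAS (TTCNNNGAA, 8.3%) in Gzmb and Gzmm, and NFAT (GGAAAA, 23.4%) in Gzma and Gzmm, while T-box (AGGTGTGA, 1.28%) and E4BP4 (TTACGTAA, 0.119%) matched in none of the 10. These are matches of letters only, and binding was not measured.

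The order of levels differed between the genotypes. The Rag2-/- medians ran from Gzmc at 5.04 through Gzmb at 4.32, Gzma at 3.71, Gzmf at 3.28, Gzmd at 3.14, Prf1 at 2.29, Gzme at 1.80 and Gzmg at 1.32 to Gzmm at −1.42 and Gzmk at −2.07. Neighbours in that order were not separated by their spread, since in every neighbouring pair at least 1 of the 11 tumors had the reverse order. With T and B cells present, Gzmb led at 3.24, followed by Gzma at 1.98, Gzmc at 0.80, Prf1 at 0.63, Gzmk at 0.56, Gzmm at −0.41 and Gzme at −1.92, with Gzmd, Gzmf and Gzmg at −3.32. There Gzmb was above Gzma in all 8 tumors, while Gzmk and Gzmm each led in 4 of 8. Against the order of their medians, Gzmc was above Prf1 in 2 of the 8 tumors and below it in 5.

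**Figure D1:**
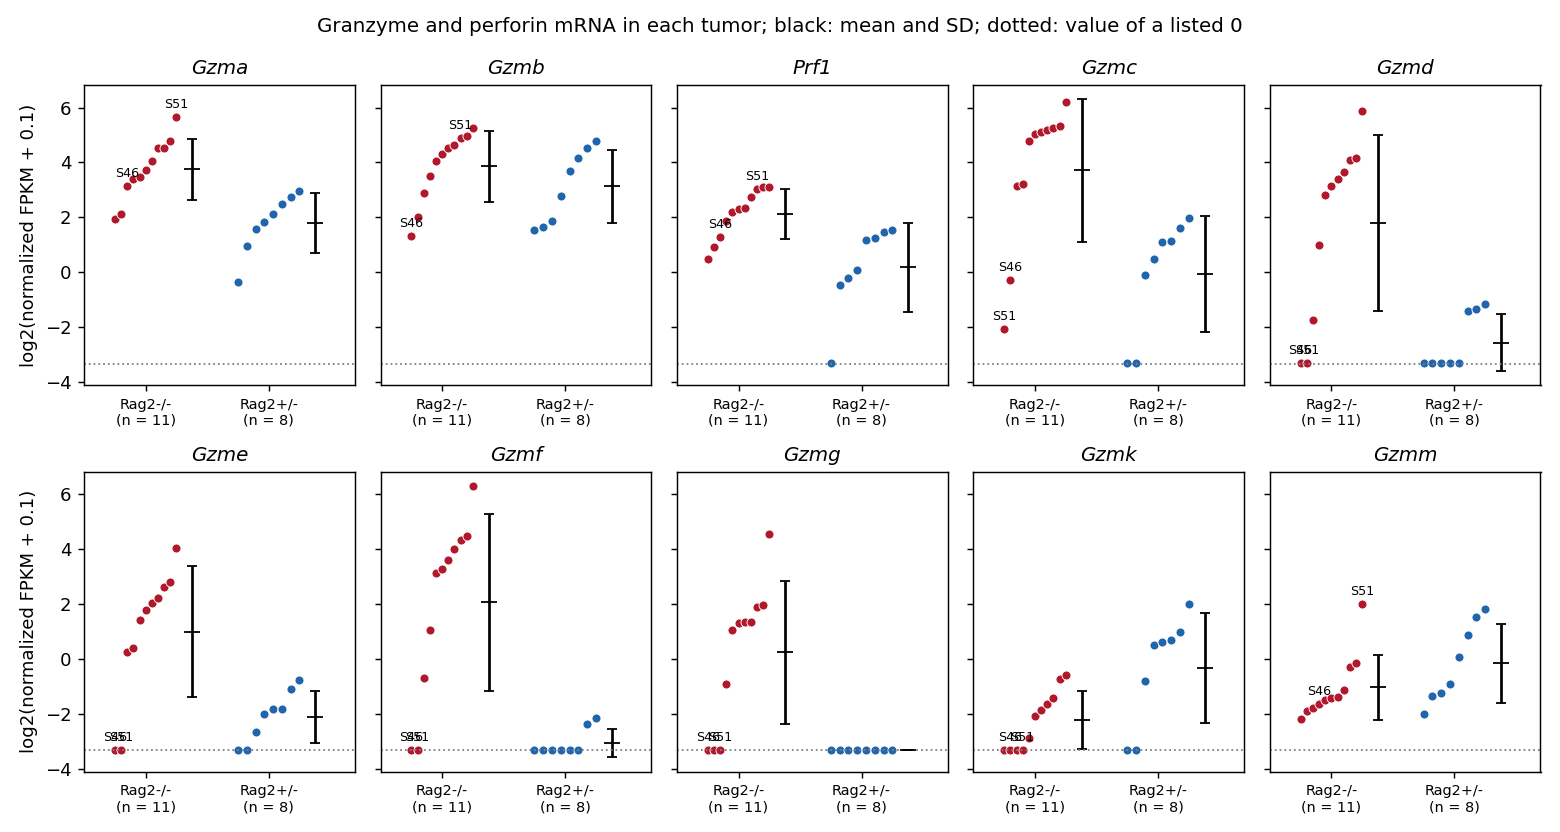
Level of each of the 10 genes in every tumor, as log2(normalized FPKM + 0.1) on the vertical axis; red points are the 11 Rag2-/- tumors, blue points the 8 Rag2+/- tumors, sorted by value within a group, and black marks give the mean and SD. Gzmb overlaps between the genotypes across nearly its whole range, Gzmc to Gzmg lie high in most Rag2-/- tumors but not in S46 and S51, and Gzmk is higher in 5 Rag2+/- tumors than in every Rag2-/- tumor.

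Gzmb, the granzyme that triggers caspases, had nearly the same range in both genotypes. It ran, without T and B cells, from 1.33 in S46 over a median of 4.32 to 5.26 in S43, and with them from 1.54 in S56 over 3.24 to 4.77 in S55. Only 3 of the 11 Rag2-/- tumors were above the highest Rag2+/- tumor and 1 was below the lowest. The difference of means was 0.73 (3.86 ± 1.28, SD, n = 11, against 3.13 ± 1.33, SD, n = 8), smaller than either SD. Behind these values were an estimated 86 to 1358 fragments in the Rag2-/- and 47 to 935 in the Rag2+/- tumors.

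Gzma, the tryptase of the family, was higher in most Rag2-/- tumors than in any Rag2+/- tumor. It ran from 1.95 in S50 over a median of 3.71 to 5.65 in S51 in Rag2-/- tumors and from −0.37 in S56 over 1.98 to 2.95 in S55 in Rag2+/- tumors. Of the 11 Rag2-/- tumors, 9 were above the highest Rag2+/- tumor. The means differed by 1.96 (3.75 ± 1.11, SD, n = 11, against 1.79 ± 1.08, SD, n = 8), a 3.89-fold difference of geometric means on this scale, and by 1.36 in the 15 tumors of the source data.

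Prf1, the pore-forming protein without which granzymes do not reach the target's cytosol, ran from 0.49 in S50 over 2.29 to 3.12 in S43 in Rag2-/- tumors. The Rag2+/- values lay between −0.46 in S60 and 1.55 in S55 in 7 tumors, with S56 listed at 0 and a median of 0.63. In 8 of 11 Rag2-/- tumors it exceeded the highest Rag2+/- tumor, and the means differed by 1.93 (2.12 ± 0.90, SD, n = 11, against 0.19 ± 1.62, SD, n = 8). The Prf1 difference was 1.43 without S56 and 1.30 in the 15 tumors of the source data. All 3 genes encode proteins of the same granule. Within single tumors, Gzma lay above Gzmb in 2 of 11 Rag2-/- tumors, S46 and S51, and in 0 of 8 Rag2+/- tumors.

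Gzmc carried the highest single level among the genes of the block other than Gzmf. It was between 3.16 and 6.21 in 9 Rag2-/- tumors, at −0.27 in S46 and at −2.05 in S51, where an estimated 2 fragments lay behind it. The Rag2+/- values ran from a listed 0 in S56 and S60 over a median of 0.80 to 1.98 in S53. The 9 Rag2-/- tumors therefore all lay above every Rag2+/- tumor while S46 and S51 lay inside the Rag2+/- range. The means lay 3.78 apart (3.72 ± 2.60, SD, n = 11, against −0.05 ± 2.11, SD, n = 8). Gzmc was above Gzmb in 8 of 11 Rag2-/- tumors and in 1 of 8 Rag2+/- tumors, S53, so that in most tumors without T cells the transcript of granzyme C and not granzyme B was the more abundant per length.

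Gzmd and Gzmf followed Gzmc at lower levels. Gzmd was at 5.87 in S41, between 1.01 and 4.18 in 7 more Rag2-/- tumors, at −1.73 in S50 and listed at 0 in S46 and S51. Among Rag2+/- tumors it was listed at 0 in 5 of 8 and reached −1.17, which corresponds to an estimated 8 fragments, in S55. Gzmf was at 6.29 in S41, between 1.06 and 4.47 in 7 more, at −0.70 in S50 and listed at 0 in S46 and S51, against at most −2.15, or 3 fragments, in S54 among the Rag2+/- tumors, 6 of which were listed at 0. The differences of means were 4.36 for Gzmd and 5.13 for Gzmf, the latter the largest of the 10 on this scale. Both depend on the value given to a listed 0, and with a pseudocount of 1 they were 2.55 and 2.86, beside 2.87 for Gzmc. In the 15 tumors of the source data they were 5.03 and 6.05, beside 4.22 for Gzmc.

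Gzme and Gzmg were the lowest of the block in Rag2-/- tumors, whereas in Rag2+/- tumors Gzme had a higher median than Gzmd, Gzmf and Gzmg. Gzme ran from 0.26 in S50 to 4.03 in S41 in 9 Rag2-/- tumors, was listed at 0 in S46 and S51, and reached at most −0.75, or 11 fragments, in the Rag2+/- tumors, 6 of which had a value above 0. Gzmg was above 0 in 8 Rag2-/- tumors, from −0.90 in S48 to 4.56 in S41, and was listed at 0 in S46, S50 and S51 and in all 8 Rag2+/- tumors. A count of 0 fragments allows up to 0.113 to 0.282 normalized FPKM in these 8 tumors (3 fragments each, counting error only), whereas the 8 Rag2-/- tumors with a value had 0.436 to 23.5 normalized FPKM. S41 had the highest level of all 5 genes of Gzmc to Gzmg, and it is also the shallowest library, with an estimated 71 to 346 fragments behind these values.

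Gzmk, a granzyme of T cells, went the other way. It was at or near the lowest value in Rag2-/- tumors, listed at 0 in 4 of 11 and at most −0.59 in S49, which is 19 fragments. With T and B cells present it was listed at 0 in S53 and S60 and lay between −0.81 and 2.0 in the other 6, 5 of which were above every Rag2-/- tumor. Its mean difference was −1.89 (−2.23 ± 1.06, SD, n = 11, against −0.33 ± 2.0, SD, n = 8), and −1.36 in the 15 tumors of the source data. Gzmm, the granzyme of innate lymphocytes, was low in both groups and overlapped widely, from −2.18 in S50 over −1.42 to 2.01 in S51 in Rag2-/- tumors and from −2.01 in S54 over −0.41 to 1.82 in S59 in Rag2+/- tumors, with 4 to 79 fragments per tumor over both groups.

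Across the group, the mean was higher in Rag2-/- tumors for 8 members and lower for 2, with a median difference of 2.53, or 1.96 over the 9 members other than Gzmg, which has no level in the Rag2+/- tumors. The median difference over the 12826 genes with a mean log2 value above 0 was 0.06. For none of the 10 did the values of the genotypes stay wholly apart. How often this holds over all genes was not counted, so nothing is read from it. A difference above 3 was seen for 5 of the 10 members and for 2 of the 12826 genes tested (0.0156%). Of these 5 only 1, Gzmc, is among the genes tested, and with a pseudocount of 1 the difference was above 3 for 0 members. Since the members were chosen by this contrast nothing is read from that share. In bulk tissue, fewer cells of a type and less RNA per cell cannot be told apart.

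Marker levels of other cell types also varied between these tumors. The mean of 10 skeletal muscle genes was 8.23 ± 2.10 (SD, n = 11) in Rag2-/- tumors, from 4.47 to 12.40, and 10.44 ± 2.45 (SD, n = 8) in Rag2+/- tumors, from 6.81 to 13.22, and Acta1, Ckm and 5 more of the 10 had an unadjusted p under 0.05 while 0 had an adjusted p under 0.05 in limma. The mean of 6 macrophage genes was 6.60 ± 0.50 (SD, n = 11) and 6.18 ± 0.56 (SD, n = 8). The part of these differences in the member levels was not tested.

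**Figure D2:**
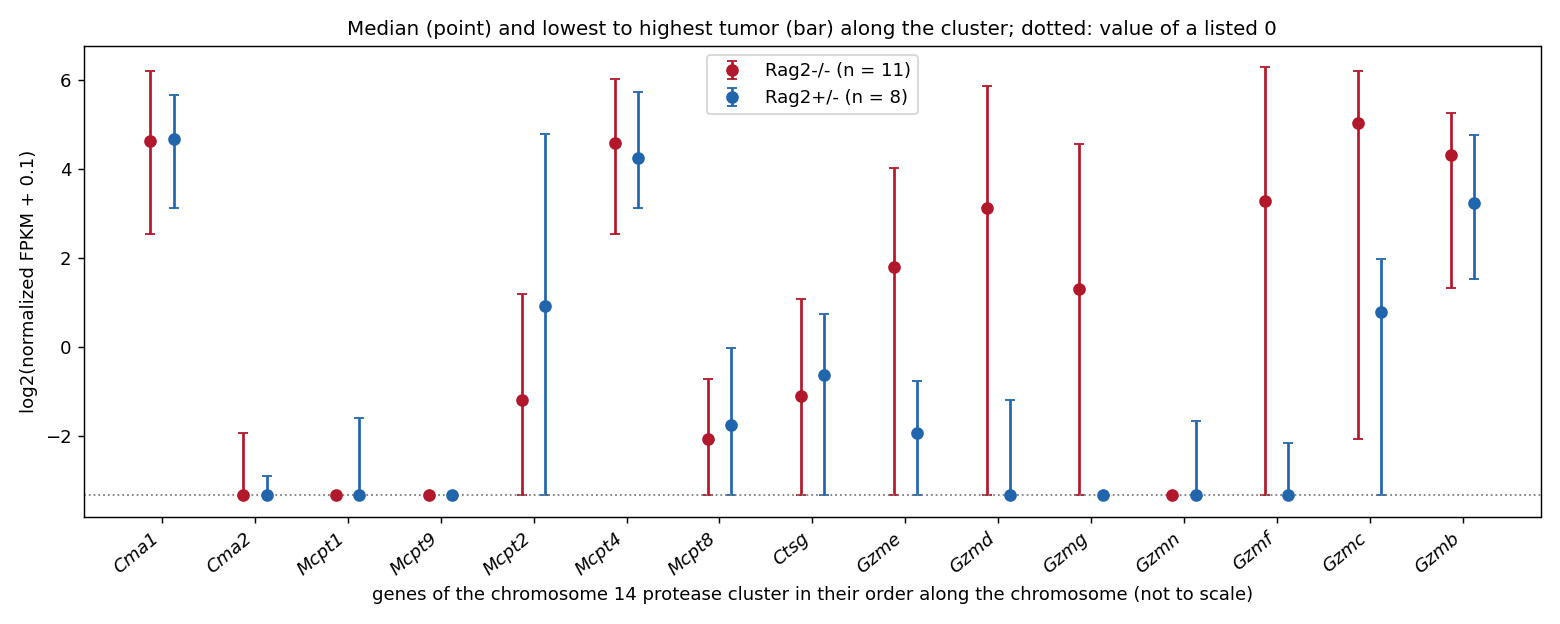
Protease genes of the chromosome 14 cluster in their order along the chromosome (horizontal axis, evenly spaced), with the median level as a point and a bar from the lowest to the highest tumor on the log2(normalized FPKM + 0.1) scale; red is Rag2-/- (n = 11), blue Rag2+/- (n = 8). Between Gzme and Gzmc only Gzmn stays at the value of a listed 0 in all Rag2-/- tumors, and the mast cell genes Cma1 and Mcpt4 have medians between 4.26 and 4.69 in both genotypes.

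The neighbours of Gzmc to Gzmg on the chromosome are given for comparison. Gzmn, which lies between Gzmg and Gzmf and whose transcript is 64.9 to 78.6% identical to those of Gzmc to Gzmg, was listed at 0 in all 11 Rag2-/- tumors and in 7 of 8 Rag2+/- tumors. On the far side of Gzme, Ctsg, the cathepsin of neutrophil granules, had a mean of −1.06 in both genotypes. Cma1 and Mcpt4, proteases of mast cells, differed by 0.05 (SE 0.42) and 0.15 (SE 0.43) between the genotypes, with adjusted p = 0.951 and 0.842 in limma. Mcpt2 and Mcpt8 of the same cluster were too low for the test. Mcpt2 was at −1.36 ± 1.44 (SD, n = 11) in Rag2-/- and 0.23 ± 3.19 (SD, n = 8) in Rag2+/- tumors. Mcpt8 was at −2.23 ± 0.95 (SD, n = 11) and −1.69 ± 1.24 (SD, n = 8). Mcpt1, Mcpt9 and Cma2 were listed at 0 in most tumors. At the other end of the block, Gzmb had a median difference of 1.09, against 3.72 to 6.60 for Gzmc, Gzmd, Gzme and Gzmf.

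Because the 5 genes are close copies, reads could be assigned to the wrong one. Their transcripts were 70.1 to 90.0% identical over their length, and 46.2 to 48.2% identical to that of Gzmb. Windows of 75 bases that another protease gene searched also holds without mismatch made up 5.73% of Gzmd, 4.75% of Gzme, 6.83% of Gzmg and 0% of Gzmc and Gzmf. At 50 bases the shares were 21.9%, 20.6%, 19.8%, 4.14% and 7.36% in that order. No window of 150 bases, the read length, was shared. The study's aligner allowed mismatches, and pseudogenes within the span were not searched, so more reads than these shares show may match more than 1 gene. How the authors' aligner placed reads that match more than 1 gene is not given in the sources used here, so levels of Gzmd, Gzme and Gzmg are less certain than that of Gzmc.

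Variation among tumors of the same genotype is not the contrast that chose the members, and it was tested. Spearman's rho and Pearson's r were computed for 81 pairs, 45 in Rag2-/- and 36 in Rag2+/- tumors, where Gzmg does not vary. Their p-values are two-sided permutation p-values, exact over all 40320 pairings for 8 tumors, adjusted over the 81 pairs, and they measure the spread between separate tumors. The adjusted p was under 0.05 for 13 of 45 pairs in Rag2-/- tumors and 3 of 36 in Rag2+/- tumors.

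In Rag2-/- tumors these 13 pairs fell into 2 blocks with no pair between them. In the 15 tumors of the source data, which leave out S41, S46 and S51 here, 17 Rag2-/- pairs passed. That is more than the 13 the blocks hold, so pairs outside the blocks passed there. Which pairs these were was not listed, so whether the separation was kept is not known. One block was Gzma, Gzmb and Prf1, with rho from 0.90 to 0.96 in all 3 pairs. Gzmb with Prf1 had rho = 0.96 (permutation p = 3.00e-05, adjusted p = 4.05e-04) and r = 0.91 (permutation p = 2.80e-04, adjusted p = 0.00189), and r = 0.92 once the 2 tumors most distant from the median level were left out. The other was Gzmc, Gzmd, Gzme, Gzmf and Gzmg, with rho from 0.85 to 0.99 in all 10 pairs. Gzmd with Gzmf had rho = 0.99 (permutation p = 1e-05, the smallest that 100000 permutations can give, adjusted p = 1.62e-04) and r = 1.0, and r = 0.99 once the 2 most distant tumors were left out.

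The 15 pairs between the blocks had rho from 0.32 to 0.72 in Rag2-/- tumors. Of these, 6 had an unadjusted permutation p under 0.05 and 0 an adjusted one. The gap between the blocks depends on S46 and S51, in which Gzma, Gzmb and Prf1 were expressed while Gzmd, Gzme, Gzmf and Gzmg were listed at 0. Without these 2 tumors, a choice made after their values were seen, rho between the blocks was 0.63 to 0.98 over the 9 tumors left and rho within Gzmc to Gzmg was 0.77 to 0.98. These are descriptions with no test, because the tumors were left out for the values compared. S51 had the highest Gzma of all 19 tumors, 5.65, and a Prf1 level of 3.03, beside a Gzmc level of −2.05. S46 had a Gzma level of 3.14 beside the lowest Gzmb of its genotype, 1.33.

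**Figure D3:**
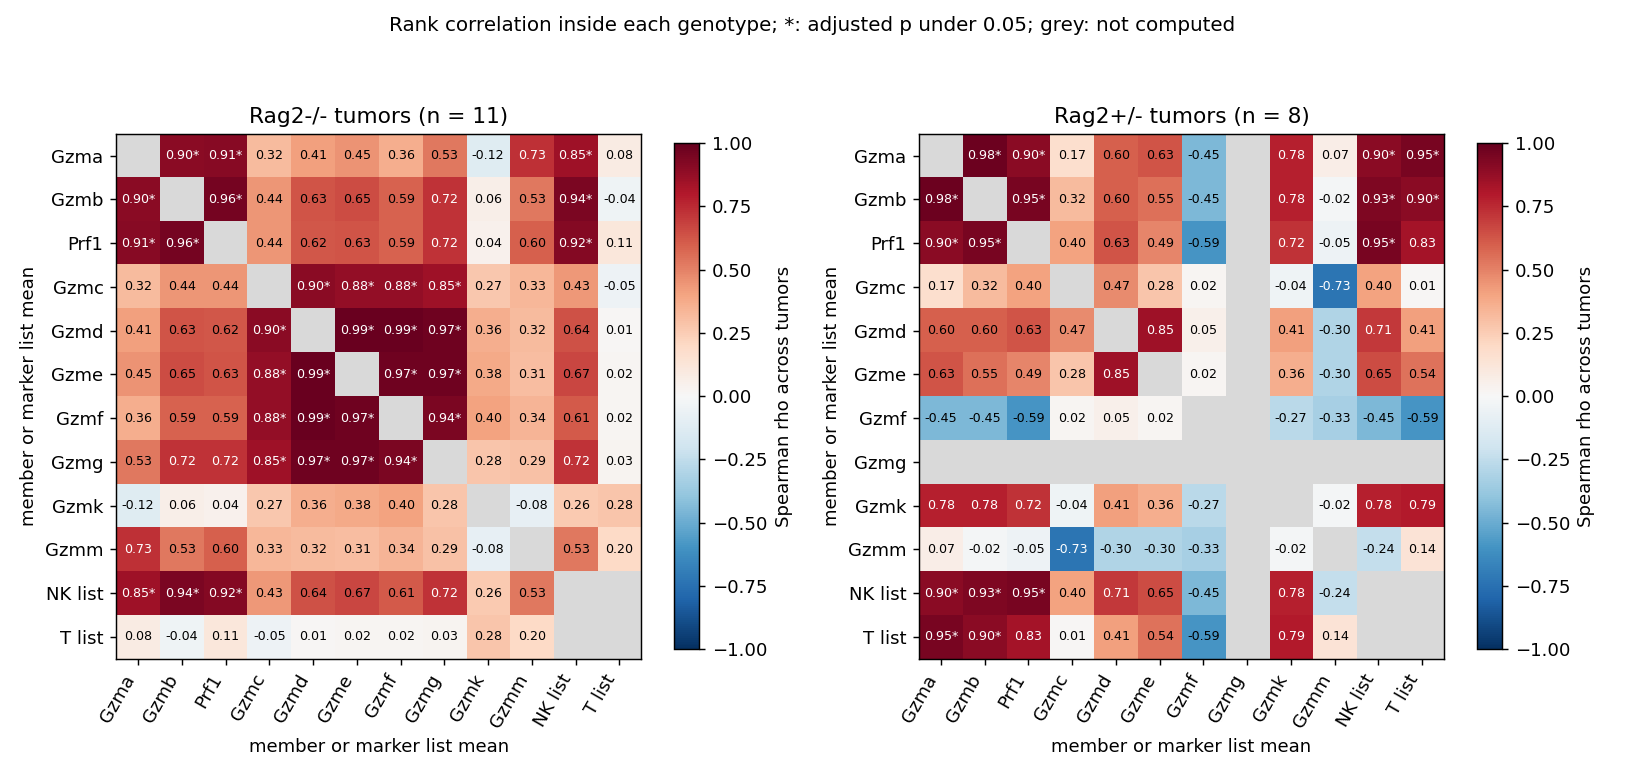
Spearman's rho across tumors for each pair of members and for each member with the mean of the NK and T cell marker lists, Rag2-/- on the left (n = 11) and Rag2+/- on the right (n = 8); colour and number give rho, an asterisk an adjusted permutation p under 0.05, and grey was not computed. In Rag2-/- tumors Gzma, Gzmb and Prf1 form one block (0.90 to 0.96) and Gzmc to Gzmg another (0.85 to 0.99); in Rag2+/- tumors the first block is seen (0.90 to 0.98).

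In Rag2+/- tumors, Gzma, Gzmb and Prf1 again rose and fell together, with rho from 0.90 to 0.98 and all 3 pairs at an adjusted p under 0.05, while over all Rag2+/- pairs 2 in place of 3 passed in the 15 tumors and 2 after Ptprc was subtracted. Gzma with Gzmb had rho = 0.98 (exact permutation p = 3.97e-04, adjusted p = 0.00309) and r = 0.88 (exact permutation p = 3.22e-04, adjusted p = 0.00201), and r = 0.99 without the 2 most distant tumors. Among Gzmc, Gzmd, Gzme and Gzmf rho was 0.02 to 0.85 and 0 of 6 pairs passed, with 1 at an unadjusted p under 0.05. Gzmd, Gzme and Gzmf had at most 11 fragments there, and Gzmc had a median of 33 and up to 82. Each of the 6 pairs holds at least 1 of Gzmd, Gzme and Gzmf, so their co-variation could not be judged. Gzmk had rho = 0.78 with Gzma and with Gzmb and 0.72 with Prf1, none of which passed after adjustment. Whether these correlations differ between the genotypes was not tested.

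The level of NK and T cells was taken from 2 marker lists. The 12 NK genes, among them Ncr1, Klrb1c, Il2rb and Eomes, had a mean of 0.58 ± 0.54 (SD, n = 11) in Rag2-/- tumors, from −0.60 to 1.10, and −0.11 ± 0.88 (SD, n = 8) in Rag2+/- tumors, from −1.93 to 0.81. The 11 T cell genes had a mean of −2.30 ± 0.32 (SD, n = 11), from −2.81 to −1.61, and 0.88 ± 0.92 (SD, n = 8), from −0.47 to 2.01. The NK list thus overlaps between the genotypes and the T list does not. Several NK genes, Klrk1 and Il2rb among them, are also used by T cells.

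Gzma, Gzmb and Prf1 had the strongest rank correlations with the NK list in both genotypes. In Rag2-/- tumors rho with the NK list was 0.85 for Gzma (permutation p = 0.00143, adjusted over the 38 relations with both lists p = 0.0109), 0.94 for Gzmb (permutation p = 1e-04, adjusted p = 0.0038) and 0.92 for Prf1 (permutation p = 2.50e-04, adjusted p = 0.00475). Pearson's r was 0.80, 0.78 and 0.84, with permutation p of 0.00233, 0.00681 and 0.00167, and without the 2 tumors whose list mean was most distant from its median r was 0.75, 0.86 and 0.83. In Rag2+/- tumors rho was 0.90, 0.93 and 0.95 in the same order (exact permutation p = 0.00456, 0.00223 and 0.00114, adjusted p = 0.0217, 0.0141 and 0.0108), with r = 0.93, 0.84 and 0.97, and r = 0.86, 0.87 and 0.86 without the 2 farthest tumors. No other member passed in either genotype at these settings. The Rag2+/- calls were lost in part or whole under other settings. There 1 member, not identified, passed in the 15 tumors of the source data and 0 with the list median. In Rag2-/- tumors 4 members passed in the 15 tumors, 5 with a pseudocount of 1 and 6 with the list median.

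Gzmc to Gzmg had weaker relations with the NK list in Rag2-/- tumors, from rho = 0.43 for Gzmc to 0.72 for Gzmg, with adjusted permutation p from 0.0666 to 0.351. S51 had an NK list mean of 0.85, above the median of its genotype of 0.81, with 4 of the 5 genes of the block at 0. S50 had a list mean of 0.09 and S46 of 0.08, and the same genes were at 0.26 or below in S50 other than Gzmc at 3.22. Leaving out S46 and S51, as a description with no test, rho with the NK list was 0.83 for Gzmd, 0.88 for Gzme, 0.80 for Gzmf, 0.90 for Gzmg and 0.53 for Gzmc.

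With the T cell list, members in Rag2-/- tumors had rho from −0.05 to 0.28. In the permutation test 0 of 10 relations passed, with 0 at an unadjusted p under 0.05. The list had a mean of −2.3 in these tumors. Of its genes, Cd3e was listed at 0 in all 11, while Cd4, Cd28 and Icos were listed above 0 in all 11. These mice have no mature T cells, so the list is no measure of T cells there. In Rag2+/- tumors Gzma had rho = 0.95 (exact permutation p = 0.00114, adjusted p = 0.0108) and Gzmb rho = 0.90 (exact permutation p = 0.00456, adjusted p = 0.0217), with r = 0.93 and 0.90 and, without the 2 farthest tumors, 0.87 and 0.85. For Prf1 rho was 0.83 (exact permutation p = 0.0154, adjusted p = 0.0649), while its r of 0.83 passed (exact permutation p = 0.0035, adjusted p = 0.019) and was 0.89 without the 2 most distant tumors. For Gzmk rho was 0.79 (exact permutation p = 0.0254, adjusted p = 0.085) and r was 0.60 (exact permutation p = 0.12, adjusted p = 0.273). With the T list, 1 relation passed in the 15 tumors and 0 with the list median. The share of NK and T cells in the Gzma and Gzmb levels cannot be told apart. The mean of the 6 macrophage genes also had rho = 1.0 with Gzmb in Rag2+/- tumors (exact permutation p = 4.96e-05, adjusted over 76 relations with 4 other lists p = 0.00377), 0.98 with Gzma (exact permutation, adjusted p = 0.0101) and 0.95 with Prf1 (exact permutation, adjusted p = 0.0217). The mast cell and basophil list had rho = 0.98 with Prf1 (exact permutation, adjusted p = 0.0101). These values are as high as those with the NK list, so in Rag2+/- tumors the relation is not shown to be particular to NK genes. Among Rag2-/- tumors rho with the macrophage list was 0.20 for Gzma, 0.04 for Gzmb and 0.12 for Prf1, and with the mast cell and basophil list 0.42, 0.19 and 0.24, none of which passed. Whether these differ from the relations with the NK list was not tested.

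**Figure D4:**
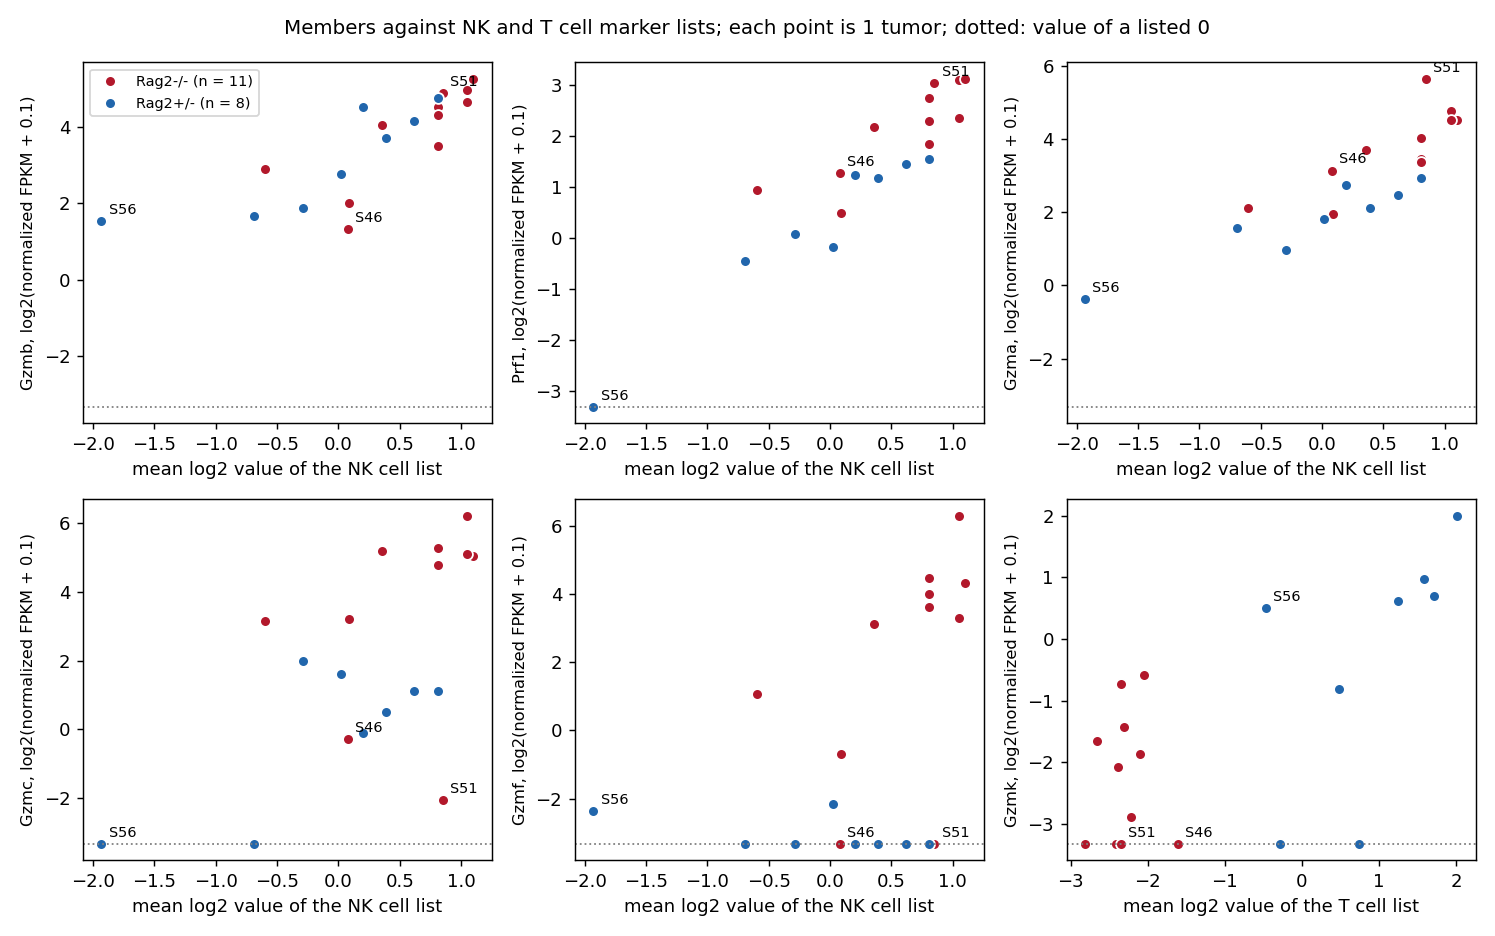
Members on the vertical axes, as log2(normalized FPKM + 0.1), against the mean log2 level of the 12 NK cell genes or, for Gzmk, of the 11 T cell genes; each point is 1 tumor, red Rag2-/- (n = 11) and blue Rag2+/- (n = 8). Gzmb, Prf1 and Gzma rise with the NK list in both genotypes, Gzmf is at the value of a listed 0 in S51 at an NK list mean of 0.85, and S56 has the lowest NK list mean, −1.93.

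The genes most like each member across the 19 tumors, after the mean of each genotype was subtracted, were mostly different from member to member, and only Gzmd and Gzme shared any. They are given by Pearson's r as a description over tumors that share composition. Prf1 was most like Il2rb, the beta chain of the IL-2 and IL-15 receptor (r = 0.94), Tnfrsf9, the costimulatory receptor 4-1BB (0.92), and Bcl2a1a, a survival gene (0.92). Gzmb was most like Ctsw, a protease of cytotoxic lymphocytes (0.86), Il18rap, a chain of the IL-18 receptor (0.85), and Ccl5, a chemokine of cytotoxic lymphocytes (0.85). Gzma was most like Zbp1, a sensor of nucleic acids induced by interferon (0.90), Ifi214 (0.90) and Gch1, the first enzyme of tetrahydrobiopterin synthesis (0.89).

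For Gzmc to Gzmf the closest genes were others. Gzmc was most like 3300005D01Rik (r = 0.92), Podnl1 (0.91) and Colec12, a scavenger receptor (0.90), and Gzmd like 1500015O10Rik (0.88), Masp1, a protease of the lectin complement pathway (0.82), and Nbl1, a BMP antagonist (0.82). Gzme was most like Nbl1 (0.90), Gm44732 (0.88) and 1500015O10Rik (0.87), and Gzmf like Psph (0.85), Dus4l (0.85) and Nppc (0.83). In Rag2+/- tumors alone, where Gzmf is listed at 0 in 6 of 8, its r with these 3 was −0.23, 0.22 and 0.36. Part of this rests on S46 and S51. Without them, r in Rag2-/- tumors fell for Gzmc from 0.94 to 0.32 with Colec12, from 0.93 to 0.39 with Podnl1 and from 0.96 to 0.67 with 3300005D01Rik. It fell from 0.92 to 0.49 for Gzme with Nbl1 and from 0.90 to 0.56 for Gzme with Gm44732. For Gzmd with Nbl1 it fell from 0.84 to 0.48 and for Gzmf with Nppc from 0.88 to 0.64. The other pairs fell less, as for Gzmd with 1500015O10Rik, where r was 0.95 with them and 0.90 without. For Prf1 with Il2rb it was 0.96 with them and 0.98 without.

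Gzmk was most like Gm43737 (r = 0.76), Irx1 (0.75) and Cfap74 (0.72), and Gzmm like Rnf14, Gpd2 and Mat2b (0.91 each). In Rag2-/- tumors without S46 and S51, r fell from 0.60 to 0.40 for Gzmk with Gm43737, from 0.56 to 0.34 for Gzmk with Cfap74, from 0.86 to 0.56 for Gzmm with Rnf14 and from 0.87 to 0.66 for Gzmm with Gpd2, and was 0.86 for Gzmm with Mat2b. Gzmm also had r = 0.84 with the mean of the muscle genes in Rag2+/- tumors (exact permutation p = 0.0193) and r = 0.64 in Rag2-/- tumors (permutation p = 0.048), with rho = 0.74 and 0.43, and neither passed after adjustment. Without the 2 most distant tumors r was 0.85 in Rag2+/- tumors and −0.01 in Rag2-/- tumors, so the latter rests on those 2. The highest Gzmm values, 2.01 in S51, 1.82 in S59 and 1.53 in S60, came from tumors with muscle list means of 12.40, 12.52 and 12.58. The part of muscle in the Gzmm level was not tested.

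The rest of the killing pathway was tested by limma over all 12826 genes with a mean log2 above 0, of which 4 (0.0312%) had an adjusted p under 0.05 and 2091 (16.3%) an unadjusted p under 0.05. The 52 pathway genes tested include 5 that were counted with them only because they lie beside the granzyme loci. Of the 52, 0 had an adjusted p under 0.05 and 6 an unadjusted p under 0.05, none of these beside the loci. Of the 6, 4 had a higher and 2 a lower mean in Rag2-/- tumors. In every sentence that follows the difference is Rag2-/- minus Rag2+/- in log2 units, and no gene named passed the adjustment.

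Of the 9 genes of granule content and activation, 7 had a higher and 2 a lower mean. Ctsc, the protease that activates progranzymes by cutting off their first residues, had the largest difference, 0.58 (SE 0.23, adjusted p = 0.301), and Lamp1, a granule membrane protein, the lowest, −0.13 (SE 0.14, adjusted p = 0.577). Of the 7 genes of granule exocytosis, Stxbp2, a syntaxin partner needed for granule fusion, had the largest, 0.35 (SE 0.28, adjusted p = 0.46), and Unc13d, the granule priming factor, the smallest, 0.02 (SE 0.41, adjusted p = 0.977).

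Among the inhibitors, Serpinb9, the serpin that blocks granzyme B, was at 3.37 in Rag2-/- and 3.20 in Rag2+/- tumors, a difference of 0.165 (SE 0.25, adjusted p = 0.697). Serpina3g had the lowest difference of that list, −0.04 (SE 0.52, adjusted p = 0.97). Serpinb9c, Serpinb9d, Serpinb9e, Serpinb9f and Serpinb9g were listed at 0 in all 19 tumors. Among 11 substrates, 10 had a higher and 1 a lower mean, from 0.66 (SE 0.41, adjusted p = 0.376) for Hmgb2, a chromatin protein cut by granzyme A, to −0.95 (SE 0.37, adjusted p = 0.301) for Dffa, the inhibitor of the caspase-activated nuclease.

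Among other killing pathways, Tnfrsf10b, the TRAIL receptor, had a difference of 0.51 (SE 0.28, adjusted p = 0.34) and Fas one of −0.03 (SE 0.43, adjusted p = 0.966). Among 8 regulators of granzyme transcription, Runx3, a factor needed for the cytotoxic program, had the largest, 0.78 (SE 0.45, adjusted p = 0.349), and Stat5b, a factor downstream of IL-2 and IL-15, the lowest, −0.88 (SE 0.51, adjusted p = 0.35). Of 6 cytokine genes tested, Il18, which stimulates NK cells, was at 2.81 against 2.13, a difference of 0.68 (SE 0.30, adjusted p = 0.301), and Il12b, the p40 chain of IL-12, had a difference of −0.81 (SE 0.34, adjusted p = 0.301). Il15, which sustains NK cells, had 0.39 (SE 0.26, adjusted p = 0.394). Of 5 genes beside the granzyme loci that were tested, all 5 had a higher mean, from Cma1, given above, to Esm1 beside Gzmk, 0.76 (SE 1.1, adjusted p = 0.677).

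Of the 12 NK genes, 6 were high enough to be tested and all 6 had a higher mean in Rag2-/- tumors, 0 with an adjusted p under 0.05 and 2 with an unadjusted one. Ncr1, the activating receptor that defines NK cells, had a difference of 1.33 (SE 0.30, adjusted p = 0.297), and Klrk1, which T cells also use, had the smallest, 0.04 (SE 0.40, adjusted p = 0.957). Among the T cell genes, only Cd4 and Cd28 were high enough for the test, with differences of −1.0 (SE 0.36, adjusted p = 0.301) and −1.49 (SE 0.52, adjusted p = 0.301). The interval of each of these tests is wide, and a p above the threshold does not show equal levels.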

How the data were processed

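RNA of 19 primary p53/MCA sarcomas was sequenced as 150 base pair paired-end reads. The deposited values are the authors' log2 of FPKM, upper-quartile normalized per library, with 0.1 added. By the study's methods, alignment used the Omicsoft aligner (mouse B38) and quantification used Ensembl models. The submitters' processing notes also name Trimmomatic, STAR and HTSeq, without a role. Library totals are not used here; depth was estimated from the steps between low values of genes with 1 transcript in GENCODE vM21, and limits low genes by counting error only.

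Genes were matched to symbols by Ensembl identifier, and 0 columns were left unmatched. limma 3.58.1 (R 4.3.3) with an intensity trend, Benjamini-Hochberg adjustment and a threshold of 0.05 was run on genes with a mean log2 above 0, with the members' results not used. Correlations used 100000 permutations, or all pairings below 10 tumors (numpy 2.4.6, scipy 1.17.1). Both were tested on simulated data. Promoters came from the RefSeq table (GRCm38.p6), which held all 10 members (of 2 entries for Gzmm the first was used), and were compared in Biopython 1.88.

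Members, marker lists and pathway lists were chosen with earlier results of these data known. Vamp7, on the exocytosis list, was not matched. Named genes are the members, list genes called by limma or with the highest and lowest difference in their list, and the 3 genes most like each member above the floor in at least 10 tumors. Il15, Serpinb9, Cd28, Cd4, Icos, Ctsg, Gzmn, Cma1, Cma2, Mcpt1, Mcpt2, Mcpt4, Mcpt8, Mcpt9, Rag2, Igkc and Cd3e were added after their values were seen. So were the tumors S46 and S51 and the 4 other cell lists in the correlations.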

Additional observations from a re-analysis of the deposited data

Results flagged for a closer look

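Prf1 in the Rag2+/- tumor S56 was listed at 0, a log2 value of −3.32, while the next lowest Rag2+/- tumor was at −0.46, a gap of 0.589 of the range of the 8 tumors, above Dixon's 95% critical value for that number. The excess depends on the value given to a count of 0. The gap was 0.479 of the range with S56 set to 3 fragments and 0.364 with a pseudocount of 1, both below that critical value. A count of 0 allows up to 0.103 normalized FPKM of Prf1 there. S56 also had the lowest Ptprc, 3.21, the lowest NK list mean, −1.93, and the highest muscle list mean, 13.22, of all 19 tumors, and the part of these in the Prf1 value was not tested. About 1 in 20 groups exceeds this limit by chance, and 11 sets of values were examined.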

How the results depend on the processing

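The direction of all 10 member differences was the same under every alternative run, but sizes depended on the pseudocount. With 1 in place of 0.1 the difference was 2.86 for Gzmf, 2.55 for Gzmd, 1.68 for Gzme, 1.5 for Gzmg, 1.22 for Prf1, −0.81 for Gzmk and −0.42 for Gzmm, and only that of Gzmg moved by more than 1 SD pooled over both genotypes. In the 15 tumors of the source data it was 1.36 for Gzma, 1.30 for Prf1, −1.36 for Gzmk and 6.05 for Gzmf. The median difference over the 10 members was 1.59 to 2.99 under the settings that changed the scale, the tumors or the summary, and 2.29 to 2.77 when each tumor was left out in turn. In Rag2-/- tumors, 21 pairs passed after Ptprc, the pan-leukocyte gene, was subtracted, which makes genes listed at 0 vary with Ptprc alone, 17 in the 15 tumors and 26 without S46 and S51. In Rag2+/- tumors 2 pairs passed after Ptprc was subtracted and 2 in the 15 tumors. Relations with the NK list that passed in Rag2-/- tumors numbered 5 with a pseudocount of 1, 6 with the list median and 7 without S46 and S51; these tumors were left out for the values compared, so both counts are no test. In Rag2+/- tumors, with only the 15 tumors of the study's source data, 1 relation passed with the NK list and 1 with the T list, and with the list median 0 and 0 passed, while by Pearson's r 3 passed with the T list in place of 2. The cause of these shifts was not tested; the 15 tumors leave 8 and 7 per genotype. Pathway genes with an adjusted p under 0.05 numbered 0 in every alternative and when each tumor was left out (0 to 0), and those with an unadjusted p under 0.05 numbered 3 with the muscle list as a covariate, 10 with quantile normalization and 4 to 10 when each tumor was left out. The share over all genes moved too, and the pathway share was 19.2% against 16.9% with quantile normalization and 5.77% against 4.32% with the covariate, above it in 2 of 9 settings and in 6 of 19 with a tumor left out. Over all genes limma called 4, and 15 with the 15 tumors, 34 without a filter, 0 with a mean log2 above 2 required (1676 at an unadjusted p under 0.05), 2 with the muscle covariate and 3 to 7 when each tumor was left out. No paired analysis was possible because the labels give no number or animal that pairs a Rag2-/- with a Rag2+/- tumor. Values of a few fragments, as for Gzmd to Gzmf in Rag2+/- tumors and Gzmk in Rag2-/- tumors, cannot rank tumors at this depth.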

Other observations

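S51, the Rag2-/- tumor with the highest Gzma and with Gzmd to Gzmg listed at 0, also had the highest level in its genotype of the genes Ifng, Il12a, Fas and Tbx21, which were picked after their values were seen. Ifng, the interferon of NK and T cells, was at 2.43 in S51 against a median of −2.10 over the 11 tumors. Il12a, a chain of IL-12, was at 2.51 against a median of −2.17, and Fas, the death receptor, at 5.20 against 2.27. Its Tbx21, the T-box factor of cytotoxic lymphocytes, was at 0.21, the highest of the genotype, and its Eomes at −0.15. The NK genes Ncr1, 1.51, and Klrk1, 4.35, were also the highest of the genotype in S51. Some other genes of the same lists were low there. Il2ra, a receptor chain of activated lymphocytes, was the lowest of the genotype there, −0.83, and the NK genes Klrb1c, 0.56, and Klra4, 0.07, were each lower in 1 other Rag2-/- tumor only. S51 also had the highest muscle list mean of its genotype, 12.40 against 10.16 in the next tumor, and the part of muscle in these values was not tested. In limma, 0 of 6 neutrophil, 0 of 6 macrophage and 0 of 4 mast cell and basophil genes tested had an adjusted p under 0.05, with 0, 1 and 0 at an unadjusted p under 0.05. S46, the other such tumor, had the highest macrophage list mean of all 19, 7.91, and the highest Ptprc of its genotype, 5.70.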
